A study of Mus musculus with 8 samples.

Results

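The genes described here encode the subunits of the proteasome, its activators and the factors that assemble it. They were chosen by name, as every gene of the deposited tables whose symbol begins with Psma to Psmg followed by a digit. This gave 36 genes of the 6028 with a row in either table, 25 in the table of the 4T1 model, 35 in that of the C26m2 model and 24 in both. The study measured RNA from the tibialis anterior, a fast muscle at the front of the leg, by sequencing of poly-A RNA in mice of 12 to 14 weeks. One group, called 4T1 cachectic, was Balb/c mice with metastases of 4T1, a mouse breast cancer line, set against Balb/c healthy mice. The other, called C26m2 cachectic, was CD2F1 mice with metastases of C26m2, a mouse colon cancer line, set against CD2F1 healthy mice. Both cancer lines carried luciferase, which let metastases be seen by imaging. The injected tumours were cut out after 2 to 3 weeks and the mice were killed at 5 weeks, when they showed signs of cachexia, the wasting of muscle in cancer. No injection or surgery is recorded for the healthy groups, so effects of surgery and of cancer cannot be told apart. Each of the 4 groups had 2 libraries, and the labels do not say which animal each came from.

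The proteasome is the barrel-shaped protease that breaks down proteins tagged with ubiquitin. Its 20S core is built of outer alpha rings, which form the gate, and inner beta rings, which hold the proteolytic sites. The 19S cap binds the ubiquitin chain, removes it, unfolds the protein with a ring of ATPases and feeds it into the core, and core and cap together make the 26S proteasome. In skeletal muscle it degrades much of the contractile apparatus during atrophy, and a rise of its subunit transcripts is a known part of muscle wasting.

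In both models nearly every listed proteasome gene was higher in cachectic muscle. Values are the authors' group levels in FPKM (fragments scaled for transcript length and for library size), 1 per group, so no spread between libraries can be given. A gene counts as changed when the authors' Cuffdiff test listed it at q of 0.05 or less. In the 4T1 model 25 genes were listed, 23 higher and 2 lower, while 32.8% of all genes tested were listed, 17.4% higher and 15.4% lower. In the C26m2 model 35 were listed, 33 higher and 2 lower, against 36.8% of all genes tested, 21.7% higher and 15.1% lower. The GENCODE M21 annotation, which is on a later build than the authors', has 50 coding genes with such names, of which 50% and 70.0% were thus listed in the 4T1 and C26m2 models. The sources used here do not say whether the authors tested each of the other genes. The higher proteasome genes were abundant, with a median of 229 FPKM in 4T1 cachectic muscle and 72.4 FPKM in Balb/c healthy muscle. Across all higher genes of that table the medians were 17.0 and 5.63 FPKM. The part of this higher level in how many proteasome genes were listed was not tested. At q of 0.01 or less, 18 proteasome genes of the 4T1 model and 33 of the C26m2 model were called, against 22.3% and 26.2% of all genes tested. With an absolute log2 fold change of 1 or more, 21 and 31 were called, against 27.9% and 23.8%.

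Among the higher proteasome genes the log2 fold change ranged over 0.92 to 2.44 in the 4T1 model and 0.87 to 2.39 in the C26m2 model. The higher proteasome genes had a median log2 fold change of 1.44 in the 4T1 model, a 2.71-fold change, beside 1.48 for all 2303 higher genes of that table. In the C26m2 model their median was 1.59, a 3.00-fold change, beside 1.14 for all 2847 higher genes. Changes of at least 2 on the log2 scale were seen in 2 proteasome genes of the 4T1 model and 6 of the C26m2 model. Over all listed genes, 31.4% and 19.9% had a change of that size in either direction. The deposited tables lean towards higher genes, with a median log2 fold change over all listed genes of 0.86 and 0.72 in the 4T1 and C26m2 models. Relative to these medians the listed proteasome genes had medians of 0.54 and 0.85, and each kept its direction. The smallest absolute log2 fold changes listed were 0.72 and 0.48 in the 4T1 and C26m2 models. The medians over all listed genes thus depend on the cutoff and do not measure a shift of all genes. Being positive, they could not turn a lower gene higher. Some markers of the fibres themselves were also listed, at shares below the 32.8% and 36.8% of all genes tested in the 4T1 and C26m2 models. Of 20 muscle markers 5 were listed in the 4T1 model, 4 of them lower, and 15 had no row. Those 5 summed to 5265 FPKM in 4T1 cachectic muscle and 27288 FPKM in Balb/c healthy muscle. Most of that healthy sum was Mylpf (13985 FPKM) and Pvalb (10602 FPKM). The higher marker was Tnnt1, at 3.70 FPKM in 4T1 cachectic and 0.926 FPKM in Balb/c healthy muscle. Of these markers 6 were listed in the C26m2 model, 5 of them lower, and 14 had no row. Those 6 summed to 17252 FPKM in cachectic and 36267 FPKM in healthy muscle. The higher marker there was Mb, at 4184 FPKM in C26m2 cachectic and 2647 FPKM in CD2F1 healthy muscle. Pvalb, the calcium buffer of fast fibres, was still abundant, at 1392 FPKM in 4T1 cachectic against 10602 FPKM in Balb/c healthy muscle. It was at 2829.7 FPKM in C26m2 cachectic against 11238 FPKM in CD2F1 healthy muscle. The sums cover listed markers only, so they do not measure the change of all 20. The part of these markers in the proteasome result was not tested, and in bulk tissue fewer cells of a type and less RNA per cell cannot be told apart.

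**Figure D1:**
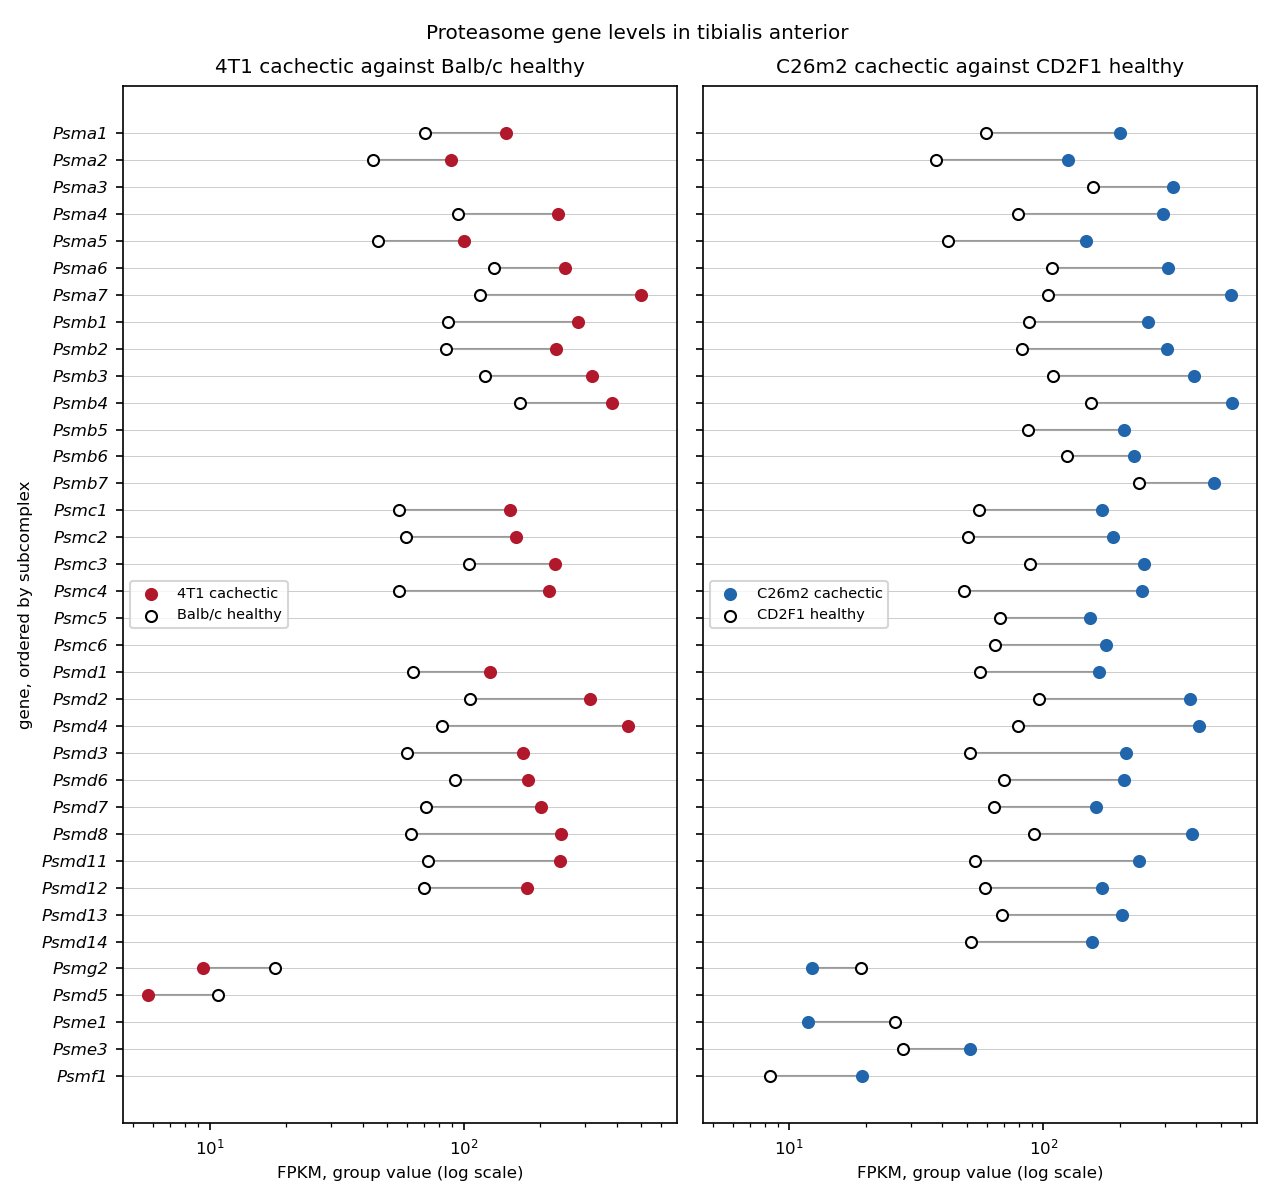
Group FPKM (log axis) of each listed proteasome gene, 1 row per gene in the order of the subcomplexes, with filled points for cachectic and open points for healthy muscle, and the 4T1 model on the left. Core and cap subunits lie to the right of their healthy value in both panels, while Psmg2, Psmd5 and Psme1 lie to the left.

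The same 5 genes had the largest increases in both models: Psmd4, Psma7, Psmd8, Psmc4 and Psmd11. Psmd4 (Rpn10), a ubiquitin receptor of the cap, was at 445 FPKM in 4T1 cachectic and 81.9 FPKM in Balb/c healthy muscle, a 5.43-fold increase (q = 0.000382 in the authors' deposited table). It was at 409 FPKM in C26m2 cachectic and 79.1 FPKM in CD2F1 healthy muscle, a 5.17-fold increase (q = 0.000319 in the authors' deposited table). In both tables these q-values go with the smallest p-value listed, 5e-05. Psma7, a subunit of the alpha ring, reached 501 FPKM in 4T1 cachectic against 116 FPKM in Balb/c healthy muscle, a 4.31-fold increase. In C26m2 mice it was at 546 FPKM in cachectic and 104 FPKM in healthy muscle, a 5.24-fold increase. Both genes stood higher in the order of levels in cachectic than in healthy muscle, which follows from their large fold changes. Among the 24 genes listed in both models Psma7 ranked 1 by level in 4T1 cachectic and 4 in Balb/c healthy muscle, and Psmd4 ranked 2 in 4T1 cachectic and 11 in Balb/c healthy muscle. Their ranks were 2 and 3 in C26m2 cachectic muscle, against 4 and 11 in CD2F1 healthy muscle.

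The promoters of these leading genes are shown because they rose most in both models. Each sequence is the 250 bases before the start of transcription, 5′ to 3′ on the strand of the gene, from RefSeq on build GRCm38.p6, which is not the build of the authors' alignment (NCBIM37). Psma7 lies at chr2:180042465-180042714 on the minus strand and Psmd4 at chr3:95042615-95042864 on the minus strand. In these bases capitals mark a CCAAT box in Psma7, and in Psmd4 an ETS element (CCGGAAG) followed by a CCAAT box read on the opposite strand (ATTGG).
Psma7: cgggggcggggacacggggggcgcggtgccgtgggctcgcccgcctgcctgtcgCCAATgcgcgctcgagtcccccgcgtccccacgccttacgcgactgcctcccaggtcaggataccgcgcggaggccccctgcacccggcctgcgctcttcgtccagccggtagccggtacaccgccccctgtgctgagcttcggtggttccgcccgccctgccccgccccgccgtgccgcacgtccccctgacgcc
Psmd4: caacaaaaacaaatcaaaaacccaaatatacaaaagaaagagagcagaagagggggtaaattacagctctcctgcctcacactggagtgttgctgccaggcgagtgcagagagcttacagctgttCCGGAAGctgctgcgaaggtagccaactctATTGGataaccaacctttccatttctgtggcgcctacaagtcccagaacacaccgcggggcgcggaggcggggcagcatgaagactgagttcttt

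The alpha ring, which gates the core, was listed in full in the C26m2 model, with all 7 subunits higher, and 6 of the 7 were higher in the 4T1 model. Apart from Psma7, the listed alpha subunits of the 4T1 model rose 1.90-fold to 2.47-fold. Psma6 was at 251 FPKM in 4T1 cachectic and 132 FPKM in Balb/c healthy muscle, the smallest increase of the ring there (1.90-fold, q = 0.0195 in the authors' deposited table). Psma2 was at 89.6 and 43.8 FPKM, and Psma5 at 100.1 and 46.1 FPKM, in 4T1 cachectic and Balb/c healthy muscle. Psma2 and Psma5 were the least abundant listed subunits of the ring in every group. The ring's median log2 fold change was 1.75 in the C26m2 model and 1.09 in the 4T1 model, a difference that was not tested. Psma4 rose 3.72-fold there and 2.47-fold in the 4T1 model, and Psma1 rose 3.37-fold there and 2.09-fold in the 4T1 model. Psma3 was listed in the C26m2 model only, at 324 FPKM in cachectic and 157 FPKM in healthy muscle, and its 2.06-fold increase was the smallest of the ring in that model. Although these subunits occupy 1 place each in the ring, their transcript levels were unequal. The highest was 5.59 times the lowest in 4T1 cachectic muscle and 3.01 times in Balb/c healthy muscle, while in the C26m2 model the ratios were 4.35 in cachectic and 4.17 in healthy muscle.

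In the beta rings of the C26m2 model, where all 7 subunits were higher, those with no proteolytic site had larger fold changes than those that cut, a difference that was not tested. In the 4T1 model 4 of the 7 were higher. Psmb1, Psmb2, Psmb3 and Psmb4, which have no active site, were listed in both models, with increases of 2.29-fold to 3.26-fold in the 4T1 model and 2.95-fold to 3.72-fold in the C26m2 model. Psmb4 was among the most abundant, at 383 FPKM in 4T1 cachectic and 167 FPKM in Balb/c healthy muscle. In the C26m2 model it was at 552 FPKM in cachectic and 154 FPKM in healthy muscle, the highest level of any proteasome gene listed in C26m2 cachectic muscle. Psmb1 rose 3.26-fold in the 4T1 model, the most of the beta subunits there, to 283 FPKM against 87.0 FPKM in Balb/c healthy muscle.

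The catalytic subunits were listed in the C26m2 model only. Psmb5, which has the chymotrypsin-like site, was at 208 FPKM in C26m2 cachectic and 87.1 FPKM in CD2F1 healthy muscle (2.39-fold, q = 0.000319 in the authors' deposited table). Psmb6, which has the caspase-like site, was at 228 and 124 FPKM in C26m2 cachectic and CD2F1 healthy muscle (1.84-fold, q = 0.000319 in the authors' deposited table). Psmb7, which has the trypsin-like site, was at 470.1 FPKM in cachectic and 238 FPKM in healthy muscle (1.98-fold, q = 0.000319 in the authors' deposited table), and was the most abundant listed proteasome gene in healthy muscle of that strain. The 3 catalytic subunits ranked 27, 32 and 31 by fold change among the 35 listed genes of the C26m2 model. Whether they differed between models was not tested, since the 4T1 table used here has no row for them. The GENCODE annotation holds processed pseudogenes named after each of these 3 genes, and the sources used here do not say how reads shared with such copies were assigned.

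The subunits that replace them in the immunoproteasome, Psmb8, Psmb9 and Psmb10, had no row in the tables used here, so neither a level nor a change can be given. These genes are induced by interferon, and the listed genes of interferon signalling and MHC class I were all lower. Of all genes tested, 32.8% were listed and 15.4% were lower in the 4T1 model, and 36.8% and 15.1% in the C26m2 model. Of 21 genes of interferon signalling and MHC class I, 6 were listed in the 4T1 model, all lower. They summed to 21.6 FPKM in 4T1 cachectic and 70.4 FPKM in Balb/c healthy muscle. All 8 listed in the C26m2 model were lower, summing to 29.8 FPKM in cachectic and 63.2 FPKM in healthy muscle. Ifit3, an interferon-induced gene, was at 0.111 FPKM in 4T1 cachectic and 0.620 FPKM in Balb/c healthy muscle. It was at 0.207 FPKM in C26m2 cachectic and 1.42 FPKM in CD2F1 healthy muscle. Some markers of leukocytes, whose cells carry immunoproteasomes, were listed as well, and their counts stand against the same shares, with 17.4% and 21.7% of all genes tested being higher. Of 15 neutrophil markers 7 were higher in the 4T1 model, none was lower and 8 had no row. Those 7 summed to 2136 FPKM in 4T1 cachectic and 3.42 FPKM in Balb/c healthy muscle. Most of the cachectic sum was S100a8 (1367 FPKM) and S100a9 (615 FPKM). Neutrophil markers of the C26m2 model were higher in 5 cases, lower in none and without a row in 10. Those 5 summed to 109.8 FPKM in cachectic and 8.54 FPKM in healthy muscle. Most of that cachectic sum was Lcn2 (48.1 FPKM) and S100a8 (46.2 FPKM). Of 15 macrophage markers 4 were higher and 5 lower in the 4T1 model, summing to 105.5 and 16.8 FPKM in 4T1 cachectic and Balb/c healthy muscle. Most of the cachectic sum was Cd68 and Lgals3, at 51.8 and 40.2 FPKM against 2.64 and 3.19 FPKM in Balb/c healthy muscle. Itgam and Cd14 also rose, while the 5 lower markers were C1qc, Emr1, Folr2, Mrc1 and Ms4a7. Macrophage markers of the C26m2 model were higher in 2 cases and lower in 10, summing to 45.2 FPKM in cachectic and 66.9 FPKM in healthy muscle. Of 15 lymphocyte markers 2 were higher and 1 lower in the 4T1 model, summing to 20.5 FPKM in 4T1 cachectic and 104.5 FPKM in Balb/c healthy muscle. Most of that healthy sum was the immunoglobulin gene Ighm, at 1.20 FPKM in 4T1 cachectic and 102 FPKM in Balb/c healthy muscle. The 2 higher genes were Coro1a (8.17-fold) and Ptprc (8.13-fold), which are not restricted to lymphocytes among leukocytes. The single marker listed in the C26m2 model, again Ighm, was lower, at 2.95 FPKM in cachectic and 33.7 FPKM in healthy muscle. These sums cover listed markers only, and the part of these cells in the proteasome result was not tested.

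The 19S base holds the 6 ATPases that unfold substrates, Psmc1 to Psmc6, and the scaffold subunits to which ubiquitin receptors dock. All 6 ATPases were higher in the C26m2 model, and 4 of them in the 4T1 model. Psmc4 led in both, at 216 FPKM in 4T1 cachectic and 55.6 FPKM in Balb/c healthy muscle (3.88-fold), and at 244 FPKM in C26m2 cachectic and 48.9 FPKM in CD2F1 healthy muscle (5.00-fold). By level it ranked 13 of the 24 genes listed in both models in 4T1 cachectic and 21 in Balb/c healthy muscle, and 12 in C26m2 cachectic and 21 in CD2F1 healthy muscle. Psmc3 was at 229 FPKM in 4T1 cachectic and 105 FPKM in Balb/c healthy muscle, and stood just inside the threshold there (q = 0.0489 in the authors' deposited table). Psmc5 and Psmc6 were listed in the C26m2 model only. Psmc5 was at 152 FPKM in C26m2 cachectic and 67.7 FPKM in CD2F1 healthy muscle, the smallest increase of the ring (2.25-fold). Psmc6 was at 177 and 64.7 FPKM in C26m2 cachectic and CD2F1 healthy muscle. Of the scaffold subunits, Psmd2 (Rpn1) rose 2.97-fold in the 4T1 model and 3.96-fold in the C26m2 model, and Psmd1 (Rpn2) rose 2.01-fold and 2.94-fold. In cachectic muscle of either model every listed base subunit lay above the highest base subunit of the matching healthy group.

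The 19S lid removes ubiquitin before the substrate enters the core. All 8 lid genes were higher in the C26m2 model, and 6 in the 4T1 model. Psmd14 (Rpn11), the deubiquitinase of the lid, was listed in the C26m2 model only, at 156 FPKM in cachectic and 51.9 FPKM in healthy muscle (3.00-fold, q = 0.000319 in the authors' deposited table). Psmd13 (Rpn9), likewise listed there only, was at 205 FPKM in C26m2 cachectic and 68.8 FPKM in CD2F1 healthy muscle, with a larger q-value for a like change (2.98-fold, q = 0.0236 in the authors' deposited table). Psmd8 (Rpn12) was at 243 FPKM in 4T1 cachectic and 62.1 FPKM in Balb/c healthy muscle, a 3.91-fold increase. For the C26m2 model it was at 386 FPKM in cachectic and 92.2 FPKM in healthy muscle, a 4.19-fold increase. Psmd11 (Rpn6), which holds core and cap together, was at 239 and 72.4 FPKM in 4T1 cachectic and Balb/c healthy muscle, a 3.30-fold increase. It was at 238 FPKM in C26m2 cachectic and 53.9 FPKM in CD2F1 healthy muscle, a 4.41-fold increase. Psmd3 (Rpn3) rose 2.87-fold in the 4T1 model and 4.12-fold in the C26m2 model, and Psmd12 (Rpn5) rose 2.54-fold and 2.88-fold. Psmd6 (Rpn7) had the smallest increase of the lid in the 4T1 model (1.93-fold), and Psmd7 (Rpn8), the partner of Rpn11, the smallest in the C26m2 model (2.52-fold). The highest listed lid level was 1.41 times the lowest in 4T1 cachectic and 1.55 times in Balb/c healthy muscle, while the ratios were 2.48 in C26m2 cachectic and 1.80 in CD2F1 healthy muscle. All 31 core and cap genes named Psm were therefore listed as higher in the C26m2 model and 23 of them in the 4T1 model, and none was listed as lower.

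**Figure D2:**
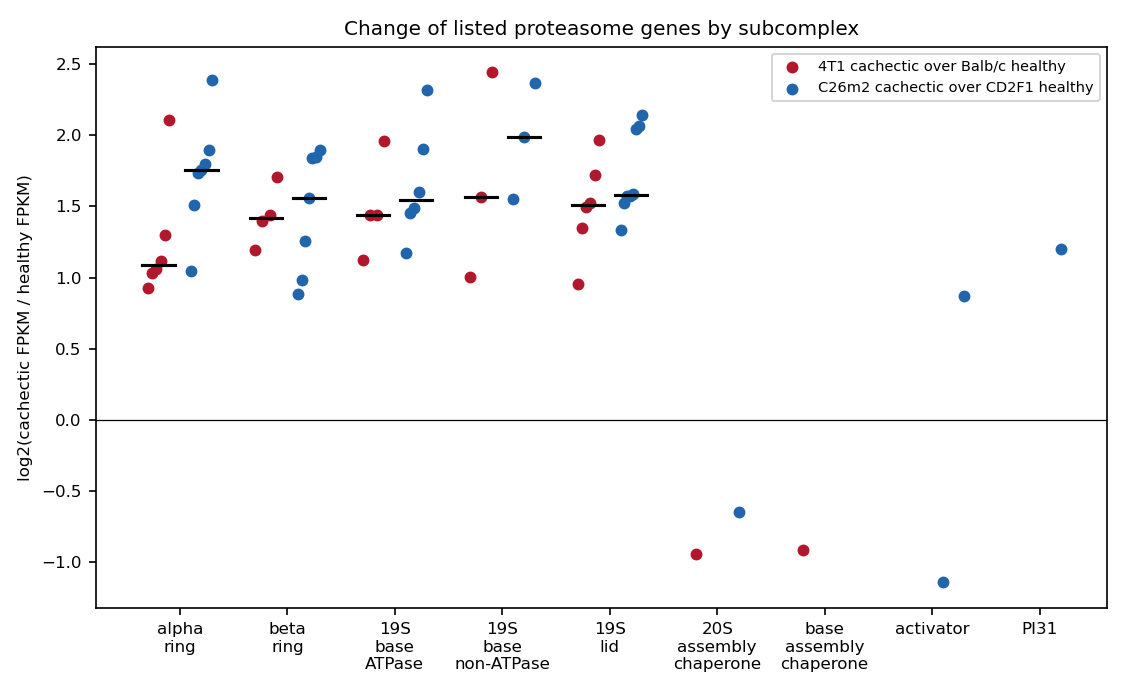
Log2 of cachectic over healthy FPKM for each listed gene (points, 1 per gene) by subcomplex, with the 4T1 model on the left and the C26m2 model on the right of each pair and bars at the medians of groups with 3 or more genes. All core and cap genes lie above 0, and the genes below 0 belong to the assembly chaperones and activators.

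The listed genes that fell were assembly factors and an activator. Psmg2 (PAC2), a chaperone that helps to build the alpha ring, was lower in both models. It was at 9.44 FPKM in 4T1 cachectic and 18.2 FPKM in Balb/c healthy muscle, where it was 1.92-fold lower in cachectic muscle (q = 0.0157 in the authors' deposited table). It was at 12.2 FPKM in C26m2 cachectic and 19.2 FPKM in CD2F1 healthy muscle, where it was 1.57-fold lower in cachectic muscle (q = 0.0299 in the authors' deposited table). Psmd5 (S5b), a chaperone of the base that leaves before the proteasome is complete, was listed in the 4T1 model only. It was 1.89-fold lower, at 5.72 FPKM in 4T1 cachectic and 10.8 FPKM in Balb/c healthy muscle (q = 0.0145 in the authors' deposited table). The other named chaperones, Psmd9, Psmd10, Psmg1, Psmg3 and Psmg4, had no row in the tables used here. Pomp, which guides maturation of the beta rings and does not carry a Psm name, was 1.44-fold higher in the C26m2 model, at 150.1 FPKM in cachectic and 104.5 FPKM in healthy muscle (q = 0.0356 in the authors' deposited table).

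The activators went in opposite directions in the C26m2 model and had no row in the 4T1 table. Psme1 (PA28 alpha), a subunit of the interferon-induced cap that works beside the immunoproteasome, was lower, at 11.8 FPKM in C26m2 cachectic and 26.04 FPKM in CD2F1 healthy muscle (log2 fold change -1.14, q = 0.00181 in the authors' deposited table). Psme3 (PA28 gamma), which forms a cap in the nucleus, was 1.82-fold higher, at 51.2 FPKM in C26m2 cachectic and 28.1 FPKM in CD2F1 healthy muscle (q = 0.00699 in the authors' deposited table). Psmf1 (PI31), which binds the core and inhibits it in vitro, was at 19.3 and 8.41 FPKM in C26m2 cachectic and CD2F1 healthy muscle, a 2.30-fold increase (q = 0.000319 in the authors' deposited table). The remaining activators Psme2, Psme2b and Psme4 had no row in the tables used here.

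The models were set side by side over the 24 genes listed in both. The tables were made in separate Cuffdiff runs, and the comparisons share no library. All 24 changed in the same direction, 23 higher and Psmg2 lower. Over all genes, 4334 were listed in the 4T1 model and 4832 in the C26m2 model, of 6028 with a row in either table. Of these, 1744 were higher in both, and agreement in direction was not counted over all genes. Of the 23 higher proteasome genes, 20 had the larger log2 fold change in the C26m2 model, with a median difference of 0.44 between the models. Over the 1744 genes of any kind that were higher in both tables, 31.3% had the larger change in the C26m2 model and the median difference, C26m2 minus 4T1, was -0.18. The difference between models was not tested for any gene, and genes are not independent replicates. Mouse strain and cancer line differ together between the models, so their effects cannot be told apart. The 3 largest gaps were those of Psma2, Psma1 and Psma5 in the alpha ring. Psma2 had log2 fold changes of 1.73 in the C26m2 model and 1.03 in the 4T1 model, and Psma1 had 1.75 and 1.06. Psmb1, Psmd4 and Psmd7 had the larger change in the 4T1 model, with C26m2 minus 4T1 differences of -0.14, -0.07 and -0.17. Healthy levels were lower in CD2F1 than in Balb/c muscle for 20 of the 23 genes, and cachectic levels were higher in the C26m2 than in the 4T1 model for 18 of them, levels here being from separately normalised tables. Across the 23 genes the log2 fold changes of the models had a Pearson's r of 0.75 and a Spearman's rho of 0.71, as a description across genes within 1 complex. Across genes of 1 table, Spearman's rho between healthy FPKM and log2 fold change was -0.06 over the 23 higher genes of the 4T1 model and -0.10 over the 33 of the C26m2 model.

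**Figure D3:**
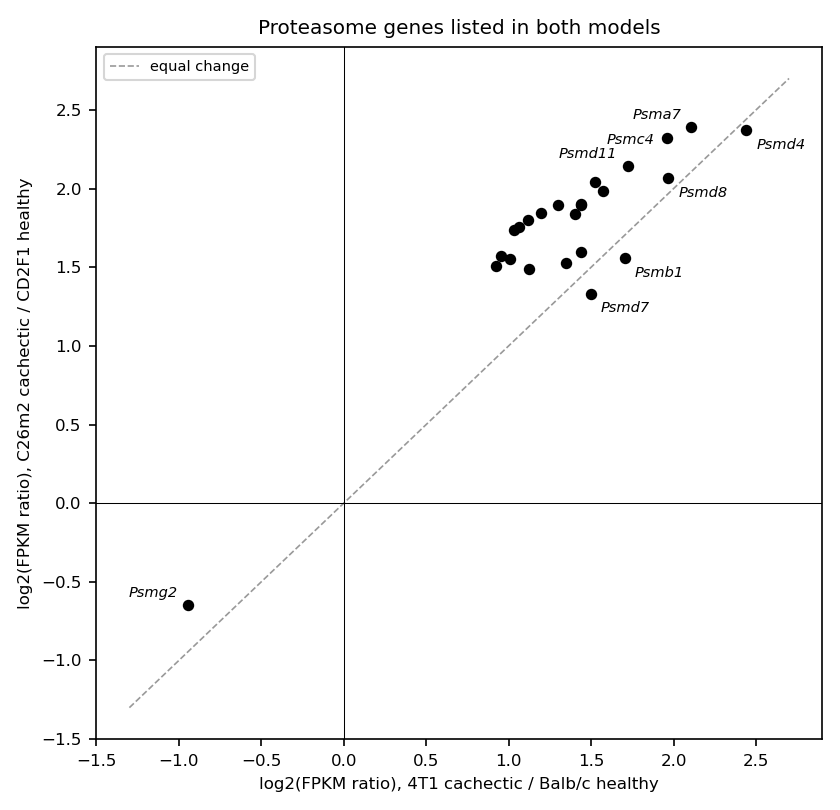
Log2 fold change of the 24 proteasome genes listed in both models, the 4T1 model on the x axis and the C26m2 model on the y axis, with a dashed line at equal change. Most points lie above the line, Psmb1, Psmd4 and Psmd7 lie below it, and Psmg2 is the single point below 0 on both axes.

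Promoters were searched for 4 short elements, since the core and cap genes moved together. RefSeq sequences (GRCm38.p6, from 250 bases before to 50 after the start of transcription) were matched by symbol for 29 of the 36 genes. The remaining 7 are Psmb1, Psmb2, Psmb7, Psmc3, Psmd3, Psmd7 and Psmg2. The core of the antioxidant response element, TGACNNNGC on either strand, is bound by NFE2L1, the factor that raises proteasome genes when proteasome activity is low, and by NFE2L2. It was found in 4 of the 29 promoters (13.8%) and in 14.0% of all 27025 genes with a promoter sequence. Its holders were the catalytic subunits Psmb5 and Psmb6, the ATPase Psmc6 and the lid subunit Psmd12, of which Psmd12 alone was listed in both models. The forkhead element GTAAACA, bound by FoxO factors, was found in 0 of the 29 promoters and in 4.05% of all genes. The CCAAT box was found in 11 (37.9%) and in 41.1% of all genes. The ETS element CCGGAAG was found in 11 (37.9%) and in 9.93% of all genes. The 27025 genes were not matched to the proteasome genes by level of expression. No match of one element overlapped a match of another. A match describes these letters in this window and is not evidence of binding.

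The stretches with the antioxidant response element core are shown because catalytic subunits are among them, with the core in capitals, up to 30 bases on either side and none beyond the start of transcription. In Psmb5 (chr14:54618004-54618072, minus strand) the core begins at base -47 from the start, and in Psmb6 (chr11:70525318-70525356, plus strand) at -9. In Psmc6 (chr14:45329574-45329635, plus strand) and Psmd12 (chr11:107479278-107479319, plus strand) it begins at -227 and -247 and reads on the opposite strand.
Psmb5: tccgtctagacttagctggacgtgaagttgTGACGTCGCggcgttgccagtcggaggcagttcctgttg
Psmb6: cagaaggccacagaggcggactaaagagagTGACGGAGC
Psmc6: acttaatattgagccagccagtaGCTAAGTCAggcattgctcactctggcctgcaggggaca
Psmd12: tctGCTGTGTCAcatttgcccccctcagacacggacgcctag

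The ETS element is shown in the 4 promoters that held no other element of the search, all of them of cap subunits, with the element in capitals. It begins at -11 in Psmd11 (chr11:80428574-80428614, plus strand) and at -6 in Psmd13 (chr7:140882358-140882394, plus strand), where it runs over the start by 1 base. It begins at -26 in Psmd2 (chr16:20651596-20651651, plus strand) and at -45 in Psmd6 (chr14:14120954-14121020, minus strand). In Psmd11 and Psmd2 it reads on the opposite strand.
Psmd11: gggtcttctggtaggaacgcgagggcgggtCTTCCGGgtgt
Psmd13: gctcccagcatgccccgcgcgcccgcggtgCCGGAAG
Psmd2: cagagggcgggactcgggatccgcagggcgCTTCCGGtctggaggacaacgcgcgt
Psmd6: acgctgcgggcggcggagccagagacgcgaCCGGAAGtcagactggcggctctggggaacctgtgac

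The ubiquitin genes Ubb and Rps27a rose in both models. Of 5 genes for ubiquitin and the enzymes that activate it, 2 were higher, 1 was lower and 2 had no row in each model, where 17.4% (4T1) and 21.7% (C26m2) of all genes tested were higher. Ubb, which encodes a chain of ubiquitin units, was at 1970.1 FPKM in 4T1 cachectic and 341 FPKM in Balb/c healthy muscle (5.78-fold), and at 1562 FPKM in C26m2 cachectic and 311 FPKM in CD2F1 healthy muscle (5.03-fold). Rps27a, which encodes ubiquitin joined to a ribosomal protein, rose 2.00-fold in the 4T1 model and 1.52-fold in the C26m2 model. Uba6, a minor activating enzyme, was low throughout and fell, to 0.370 FPKM in 4T1 cachectic against 0.960 FPKM in Balb/c healthy muscle.

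Genes of p97, the ATPase that extracts ubiquitinated proteins and hands them to the proteasome, were listed in full in the C26m2 model. Of 11 genes 10 were higher and 1 lower there, where 21.7% of all genes tested were higher. In the 4T1 model 4 were higher, 1 was lower and 6 had no row, where 17.4% of all genes tested were higher and 32.8% listed. Nploc4, a cofactor that binds ubiquitin for p97, led in both. It was at 179 FPKM in 4T1 cachectic and 31.5 FPKM in Balb/c healthy muscle (5.68-fold), and at 202 FPKM in C26m2 cachectic and 31.7 FPKM in CD2F1 healthy muscle (6.35-fold). Ubxn4, a p97 anchor of the endoplasmic reticulum, rose 5.04-fold in the 4T1 model and 6.02-fold in the C26m2 model. Vcp, which encodes p97, was listed in the C26m2 model only, at 237 FPKM in cachectic and 144 FPKM in healthy muscle (1.65-fold). Ubxn2a was the lower gene in both, 1.78-fold in the 4T1 model and 1.58-fold in the C26m2 model.

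The regulators around NFE2L1 were higher wherever listed. Of 10 genes 6 were listed in the 4T1 model and 8 in the C26m2 model, where 32.8% (4T1) and 36.8% (C26m2) of all genes tested were listed. The shares of all genes tested that were higher were 17.4% (4T1) and 21.7% (C26m2). Ddi2, the protease that cuts NFE2L1 into its active form, rose 2.62-fold in the 4T1 model and 2.85-fold in the C26m2 model. Ngly1, which removes sugar chains from NFE2L1, rose 1.87-fold and 2.69-fold. Of the small Maf proteins, with which such factors pair on DNA, Maff was at 91.5 FPKM in 4T1 cachectic and 1.42 FPKM in Balb/c healthy muscle (64.4-fold), and at 35.5 FPKM in C26m2 cachectic and 1.48 FPKM in CD2F1 healthy muscle (24.0-fold). Mafk rose 12.2-fold in the 4T1 model and 11.9-fold in the C26m2 model. Bach1, a repressor that competes for the same elements, rose as well, 4.31-fold and 4.17-fold. Nfe2l2, the related factor of the oxidative stress response, rose by 1.01 in the 4T1 model and 1.14 in the C26m2 model on the log2 scale. Mafg and Keap1 were listed in the C26m2 model only, 2.43-fold and 2.14-fold higher. Nfe2l1 itself had no row in the tables used here.

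Among 23 partners of the proteasome without a Psm name, 10 were higher, none was lower and 13 had no row in the 4T1 model, where 17.4% of all genes tested were higher. For the C26m2 model 16 were higher, 1 was lower and 6 had no row, against 21.7% of all genes tested higher. Ddi2 is counted among the partners as well as among the NFE2L1 genes. Adrm1 (Rpn13), a ubiquitin receptor of the cap, was at 174 FPKM in 4T1 cachectic and 56.4 FPKM in Balb/c healthy muscle (3.08-fold), and at 159 FPKM in C26m2 cachectic and 48.8 FPKM in CD2F1 healthy muscle (3.26-fold). Usp14, a deubiquitinase that docks on the cap, rose 1.96-fold in the 4T1 model (q = 0.0483 in the authors' deposited table) and 3.14-fold in the C26m2 model. Zfand2a, a stress-induced proteasome cofactor, rose 4.90-fold in the 4T1 model and 4.24-fold in the C26m2 model. Zfand5, which stimulates the proteasome in muscle atrophy, reached 349.5 FPKM in 4T1 cachectic and 425 FPKM in C26m2 cachectic muscle, against 124 FPKM in Balb/c healthy and 130 FPKM in CD2F1 healthy muscle. The shuttle factors Rad23b and Ubqln1, which carry ubiquitinated proteins to the cap, rose 2.03-fold and 1.95-fold in the 4T1 model, and 2.93-fold and 3.00-fold in the C26m2 model. Akirin2, which brings proteasomes into the nucleus, was listed in the C26m2 model only (2.69-fold). The single lower partner was the ligase Ube3c, which extends ubiquitin chains at the proteasome, 1.45-fold lower in the C26m2 model.

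**Figure D4:**
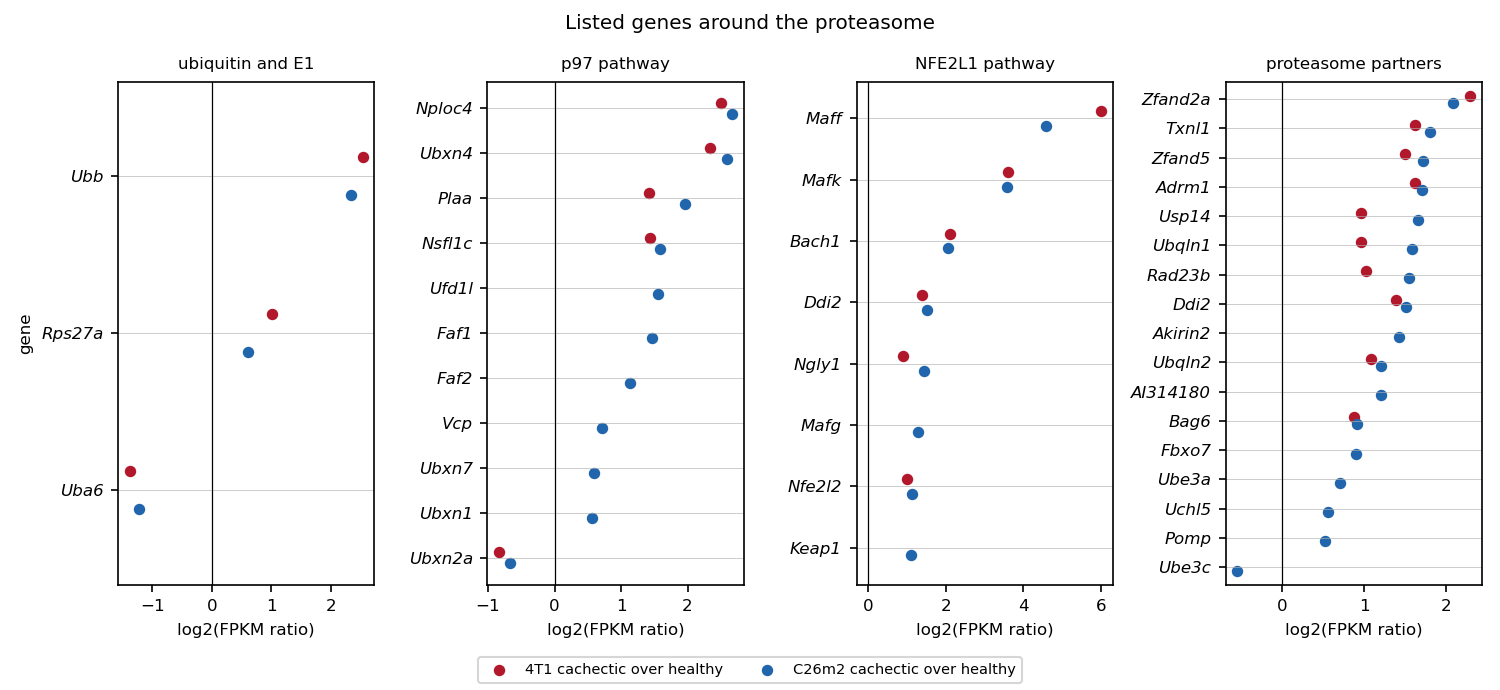
Log2 of cachectic over healthy FPKM for listed genes of ubiquitin, p97, NFE2L1 and the proteasome partners, 1 row per gene, with the 4T1 and C26m2 models in separate colours. Points lie right of 0 apart from Uba6, Ubxn2a and Ube3c.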

How the data were processed

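RNA was sequenced from 8 muscle libraries, 2 in each of 4 groups. Per the submitters' processing notes, TopHat2 2.1.0, Cufflinks 2.2.1 and Cuffdiff were used with build NCBIM37, and the sources used here name neither the annotation nor the library scaling. The authors deposited 1 table per model, with group values in FPKM, per the file headers. Each lists significant genes only, and the authors' p-value and q-value for each come from Cuffdiff, per the file headers. The deposited log2 fold change, cachectic over healthy, differed from the log2 ratio of the FPKM values by at most 1.4e-05. Values of single libraries were not analysed here, so the depth is unknown and no spread is given. Where labels do not tie libraries to animals, p-values measure only the spread between these libraries, which may be technical.

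Members and gene lists were chosen with earlier results of these data known. Named genes were the members, with the extremes of each subcomplex in full, and listed genes of the pathway lists. A gene of the lists is not reported here. The numbers of genes tested, 13218 and 13121, were estimated from q times rank over p, checked on simulated data. Fold changes, medians and ranks were computed in Python 3.11.15 with pandas 2.3.3 and scipy 1.17.1. Of the 4 promoter elements, 3 were added after the values had been seen. For 26 of 29 genes the first 20 bases after the promoter table's start were found in a GENCODE transcript of that gene in the same direction. Alternatives were a stricter q-value, a minimum change, a minimum level, a pseudocount, centring, and a shorter promoter window.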

Additional observations from a re-analysis of the deposited data

How the results depend on the processing

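No count of listed proteasome genes moved by more than 1.5 times under the alternatives run, and no median changed sign. At q of 0.01 or less, 18 genes of the 4T1 model, all higher, and 33 of the C26m2 model, 32 higher and 1 lower, were still called, and 18 in both. Psmg2 was not called in either model at that level, nor Psmd5, Psma2, Psma6, Psmc3, Psmd1 and Psmd6 in the 4T1 model, nor Psmd13 in the C26m2 model. Asking for an absolute change of 1 or more on the log2 scale left 21 genes of the 4T1 model and 31 of the C26m2 model, without Psmg2 in either. The median log2 fold change of all listed members, 1.40 and 1.57 in the 4T1 and C26m2 models, became 1.47 and 1.59 at q of 0.01 or less, 1.44 and 1.60 with the minimum change, 1.39 and 1.56 with 1 FPKM added to both groups, and 0.54 and 0.85 after centring on all listed genes. Each of these moves follows from how the alternative is built. A minimum of 1 FPKM and leaving out immunoproteasome, testis and thymus forms removed no gene, and neither could have removed one. The lowest FPKM of a listed member was 5.72 in the 4T1 model and 8.41 in the C26m2 model, and none of those forms had a row. In the shorter promoter window the antioxidant response element core was found in 2 promoters in place of 4. No paired analysis was possible because the tables hold 1 value per group and the labels carry no replicate numbers. Leaving out a library was not possible for the same reason. No statement is made on genes that a table does not list.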

Other observations

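Peptidases that finish the work of the proteasome were listed in both directions, in numbers near the share of all genes tested that were listed (32.8% and 36.8% in the 4T1 and C26m2 models). Of 12 such genes 3 were higher and 2 lower in the 4T1 model, and 3 were higher and 1 lower in the C26m2 model. Tpp2 (tripeptidyl peptidase II), which trims proteasome products, was at 27.98 FPKM in 4T1 cachectic and 13.5 FPKM in Balb/c healthy muscle (2.07-fold), and at 26.7 FPKM in C26m2 cachectic and 13.9 FPKM in CD2F1 healthy muscle (1.92-fold). Cndp2, a dipeptidase, rose 2.21-fold in the 4T1 model and 2.77-fold in the C26m2 model. Npepps, the puromycin-sensitive aminopeptidase, was listed in the 4T1 model only (3.04-fold). The aminopeptidase Rnpep was lower in both models, at 3.47 FPKM in 4T1 cachectic and 8.36 FPKM in Balb/c healthy muscle, and at 3.96 FPKM in C26m2 cachectic and 8.77 FPKM in CD2F1 healthy muscle. Pepd, which splits dipeptides ending in proline, was 2.62-fold lower in the 4T1 model.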
